A study of Mus musculus with 6 samples.

Results

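The regions described here are all 1 Mb bins of chromosomes 12, 15, 16, 18 and 19. In laboratory mice these chromosomes bear the arrays of ribosomal DNA. They make up 478 of the 2666 bins in the deposited key of positions (mm9), and were chosen by chromosome name alone. Of them, 427 held enough contacts to be analysed, against 1804 of the 2004 bins on the other 14 autosomes. These 5 chromosomes are called carriers below. The labels do not say which chromosomes bear ribosomal DNA in 129 or Cast, so the name is background on laboratory mice and was not measured.

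The series is Hi-C, an assay that crosslinks and cuts chromatin, joins ends that lie near each other, and reads both ends of each joined piece. The cells were mouse embryonic fibroblasts with a 129xCast Hybrid Background in the labels, in 1 group of 6 samples from 2 embryos with 3 technical replicates each. No treatment, age or comparison group is given. The authors deposited 1 balanced map, so every value below is a single pooled value, and its 95% exact Poisson interval covers counting error only. Copies of one molecule made by PCR would make the intervals too narrow. The table's name reads as pairs of unlike alleles, which the labels do not state. Under that reading, contacts within a chromosome join the 2 homologs. Contacts between chromosomes then join a 129 copy of one chromosome and a Cast copy of the other, and contacts between copies of the same strain are absent.

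Ribosomal DNA is a repeated array of the genes for ribosomal RNA, and the nucleolus assembles around active arrays. In laboratory mice the arrays lie beside the centromere, at the low-coordinate end of chromosomes that have their centromere at one end. Arrays of several chromosomes can meet in one nucleolus, which brings those chromosome ends near each other. The arrays are repeats, so reads from them have no unique place in the map. Silent chromatin, including sequence around centromeres, also gathers at the nucleolar rim on chromosomes without arrays.

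The proximal zone, the mapped sequence nearest the arrays, was taken as the 10 Mb at the low-coordinate end, the distal zone as the 10 Mb at the other end, and the rest as inner. The carriers' proximal zones hold 50 bins in the key. On each carrier the first 3 bins held no contact, which left 35 bins with values and 33 with enough partners. The bins of chromosomes 16 and 19 at 3000001 to 4000000 had 620 and 522 contacts and were left out. The nearest analysed sequence thus starts 3 Mb from the end on chromosomes 12, 15 and 18, and 4 Mb from it on chromosomes 16 and 19.

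Depth was alike in the zones. The kept proximal bins of the carriers had 1486 ± 396 contacts with other chromosomes (SD, n = 33 bins), against 1523 ± 362 (SD, n = 87 bins) on the other autosomes. The distal bins had 1636 ± 472 (SD, n = 49 bins) on carriers and 1673 ± 396 (SD, n = 137 bins) on the others. Both differences are smaller than the spread between bins. In all, the carriers made 52756 contacts with each other over 72206 pairs of bins, a mean of 0.731 per pair. With so few contacts per pair, the results below rest on sums over zones.

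Contacts between the carriers' proximal zones were close to the number that bin coverage alone predicts. Over all 10 pairs of carriers the proximal zones made 283 contacts, 1.07 times the expected 264 (0.951 to 1.20). The same zones met the proximal zones of the other autosomes 1.11 times the expected number (1.06 to 1.15). Among the other autosomes the value was 1.11 (1.06 to 1.15). The carriers' value divided by that of the other autosomes was 0.969 (0.854 to 1.10), with an adjusted p of 0.771 by a two-sided exact binomial test over 6 pairings of zones. Proximal contact was thus not detectably higher among carriers. Against all 14 other autosomes the interval holds ratios from 0.854 to 1.10, so a small surplus lies within it. Against only chromosomes 10, 11, 13, 14 and 17 the ratio was 1.03, with a wider interval (0.862 to 1.24). A surplus above 1.10 lies within that interval, so the upper bound depends on the comparison.

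Beside their own inner bins, the carriers' proximal zones did not stand apart either. The proximal value over the inner value was 1.07 among carriers (0.947 to 1.20, adjusted p = 0.401, exact binomial test). The other autosomes gave 1.10 (1.06 to 1.15), with an adjusted p of 8.07e-07 by the same exact test. These estimates lie close together, and the carriers' wider interval comes with fewer contacts.

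**Figure D1:**
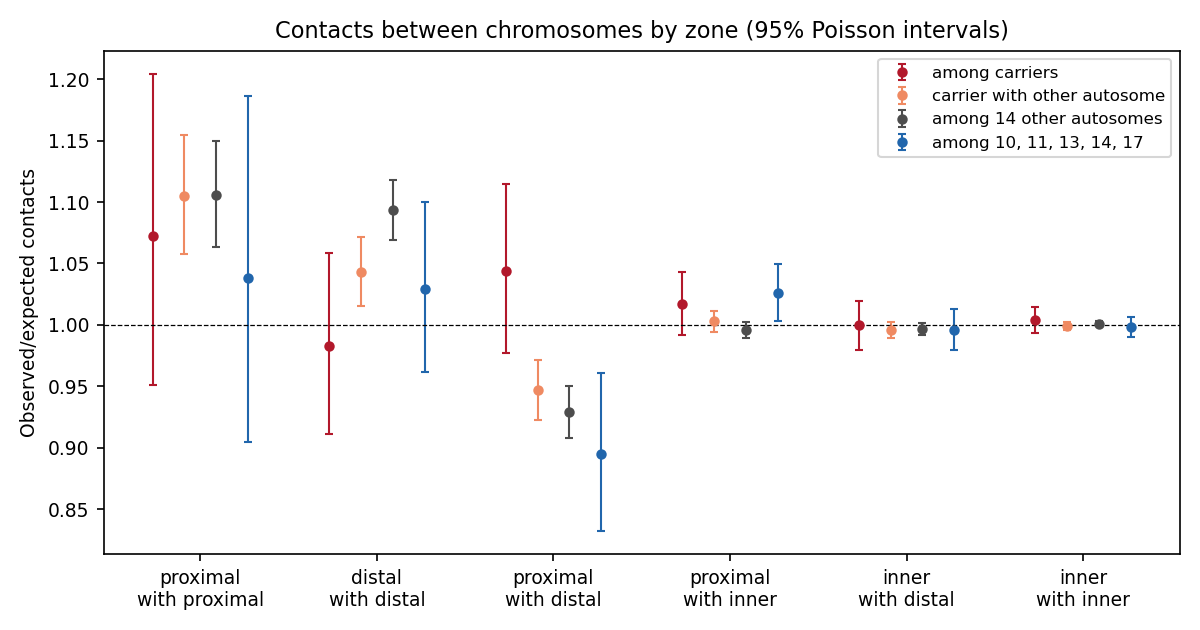
Observed over expected contacts (y axis) for the 6 pairings of proximal, distal and inner zones (x axis) among carriers, between a carrier and another autosome, among the 14 other autosomes, and among chromosomes 10, 11, 13, 14 and 17; points are sums over all chromosome pairs and bars are 95% exact Poisson intervals. Among carriers proximal with distal stands at 1.04 and distal with distal at 0.983, while among the other autosomes they stand at 0.929 and 1.09.

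The carriers differed from the other autosomes in how unlike ends met. Their proximal zones touched the distal zones of other carriers 904 times, 1.04 times the expected number (0.977 to 1.11). Among the other autosomes proximal and distal zones met less than expected, at 0.929 (0.908 to 0.95). The ratio of these values was 1.12 (1.05 to 1.20), with an adjusted p of 0.00617 by the exact binomial test. Between a carrier and another autosome the value was 0.947 (0.923 to 0.972), below that among carriers, at a ratio of 1.10 (1.03 to 1.18) and an adjusted p of 0.0409 in the exact binomial test. Summed over pairs, those of which both chromosomes were carriers were thus higher than both other kinds of pair. Single other autosomes reached that level with carriers, at 1.06 for chromosome 14, 1.05 for 4 and 1.04 for 17. The remaining ones lay below 1 with carriers, down to 0.892 for chromosome 1.

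Distal zones of carriers met each other less than those of other chromosomes did. They made 694 contacts, 0.983 times the expected number (0.911 to 1.06), against 1.09 (1.07 to 1.12) among the other autosomes. The ratio was 0.899 (0.83 to 0.972), with an adjusted p of 0.0200 by the exact binomial test. Between a carrier and another autosome the distal value was 1.04 (1.02 to 1.07), and the ratio of 0.942 to it did not pass (adjusted p = 0.434, exact binomial test).

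On the other autosomes the ends thus sorted by kind. Like ends exceeded unlike ends, with a ratio of distal with distal over proximal with distal of 1.18 (1.14 to 1.22) and an adjusted p of 6.94e-23 in the exact binomial test. Among carriers that ratio was 0.941 (0.851 to 1.04, adjusted p = 0.401, exact binomial test). None of the 6 comparisons between zones passed within the carriers, at lower counts (694 distal contacts, against 7641 among the other autosomes). Inner zones showed no such difference between groups, at 1.00 for inner with inner in both (ratio 1.00, 0.992 to 1.01, adjusted p = 0.771, exact binomial test).

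Carriers are short chromosomes, from 61.3 to 121 Mb, where the other autosomes run from 95.3 to 197 Mb. The comparison was therefore repeated with chromosomes 10, 11, 13, 14 and 17, which span 95.3 to 130 Mb. Against them the excess of proximal with distal contact was 1.17 (1.06 to 1.29, adjusted p = 0.0101, exact binomial test). The deficit of distal contact was smaller, at 0.955 (0.863 to 1.06), and no longer passed (adjusted p = 0.793, exact binomial test). Distal contact on these 5 chromosomes stood at 1.03 and on the remaining 9 at 1.11. Over the 91 pairs of other autosomes, distal contact and mean chromosome length had a Pearson r of 0.367, and proximal with distal contact and length an r of -0.0892. Over all 171 pairs of autosomes, carriers included, r was 0.337 for distal contact and -0.24 for proximal with distal contact. The pairs share chromosomes, so these correlations are descriptions, and the part of length in either difference was not tested beyond the comparison with chromosomes 10, 11, 13, 14 and 17.

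The 10 pairs of carriers varied. For proximal zones the values were 1.02 for chromosomes 12 and 15, 1.29 for 12 and 16, 1.45 for 12 and 18, and 1.22 for 12 and 19. They were 0.816 for 15 and 16, 0.813 for 15 and 18, 1.10 for 15 and 19, 0.962 for 16 and 18, 1.08 for 16 and 19, and 1.15 for 18 and 19. All 4 pairs with chromosome 12 were above 1, and only the pair 12 and 18, with 40 contacts, had an interval above 1 (1.04 to 1.97). Their mean was 1.09 ± 0.201 (SD, n = 10 pairs), against 1.07 ± 0.346 (SD, n = 91 pairs) among the other autosomes. The means lie well within the spread between pairs.

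Proximal with distal contact also varied by pair, from 0.818 for chromosomes 12 and 19 to 1.27 for 15 and 19. Chromosomes 12 and 18 gave 1.25 (1.03 to 1.51), 15 and 19 gave 1.27 (1.03 to 1.55), and 16 and 19 gave 1.19. The other pairs were 1.01 for 12 and 15, 0.999 for 12 and 16, 0.988 for 15 and 16, 0.913 for 15 and 18, 0.993 for 16 and 18, and 1.06 for 18 and 19. Only 5 of the 10 pairs exceeded 1, and the excess came mainly from those 3 high pairs. The mean was 1.05 ± 0.147 (SD, n = 10 pairs), with the other autosomes at 0.930 ± 0.111 (SD, n = 91 pairs) and a range of 0.671 to 1.20, so the groups of pairs overlapped. The spread among carriers had a chi-square of 1.62 per degree of freedom, where counting error alone gives about 1. Over only 10 pairs, an excess above counting error was not tested. For distal contact over the 91 pairs of other autosomes the chi-square was 1.47 per degree of freedom. The exact tests include no spread beyond counting error, so where there is such spread their p-values are too small.

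Whether these zone differences passed changed when single carriers were left out, which also lowers the counts. With all carriers the proximal with distal ratio was 1.12 and the distal ratio 0.899. Without chromosome 18 the excess of proximal with distal contact was 1.12 with an adjusted p of 0.0564, and without chromosome 19 it was 1.10 with an adjusted p of 0.0837, by the exact binomial test. Without chromosomes 12, 15 or 16 it still passed. The distal deficit missed the threshold without chromosome 15 (0.895), 16 (0.939), 18 (0.886) or 19 (0.902). Distal contact by pair ran from 0.811 for 15 and 19 to 1.18 for 12 and 19, with a mean of 0.987 ± 0.120 (SD, n = 10 pairs), against 1.09 ± 0.149 (SD, n = 91 pairs) among the other autosomes.

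**Figure D2:**
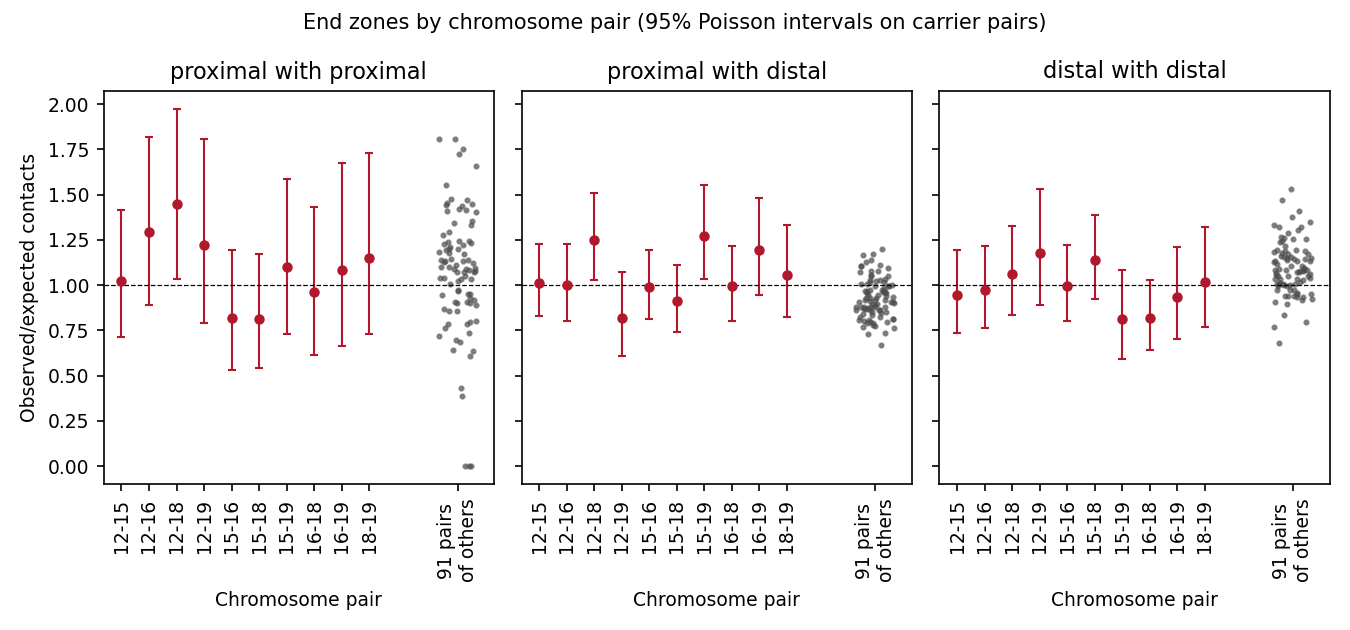
Observed over expected contacts (y axis) between the end zones of each pair of carriers (red, with 95% exact Poisson intervals) and of the 91 pairs of other autosomes (grey points, no intervals); panels show proximal with proximal, proximal with distal, and distal with distal. The pair 12 and 18 is the highest carrier pair for proximal zones at 1.45, and carrier pairs overlap the other autosomes in every panel.

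Among the carriers, chromosome 12 had the most proximal contact with the rest. Its proximal zone met those of the other carriers 1.23 times the expected number (1.03 to 1.46, 134 contacts). Chromosome 19 stood at 1.14, 18 at 1.08, 16 at 1.02 and 15 at 0.929 (0.769 to 1.11). Their intervals overlap, so the order is not settled at this depth. With the proximal zones of non-carriers chromosome 12 gave 1.16 and chromosome 15 gave 1.03, again the highest and the lowest of the 5. Chromosome 18 kept the middle place, and 16 and 19 changed places. Without chromosome 15 the proximal value among carriers rose to 1.21 with an unadjusted p of 0.0215 in an exact Poisson test, and without chromosome 12 it was 0.960, on the other side of 1.

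By chromosome, proximal with distal contact had a narrower range, on higher counts. Chromosome 12 had 355 such contacts with other carriers, against 134 between proximal zones. By pair of carriers it was not more even, with a chi-square of 1.62 per degree of freedom against 1.10 for proximal zones. With other carriers proximal with distal contact was 1.04 for chromosome 12, 1.03 for 15, 1.03 for 16, 1.04 for 18 and 1.10 for 19. With non-carriers the same 5 chromosomes gave 0.953, 0.932, 0.95, 0.951 and 0.955. Each carrier was thus higher with carriers than with non-carriers, although every carrier pair enters the values of 2 chromosomes. This was not particular to carriers. Chromosomes 4, 14 and 17 gave 1.05, 1.06 and 1.04 with carriers, and 0.861, 0.906 and 0.966 with non-carriers. Other non-carriers went the other way, such as chromosome 1 at 0.892 and 0.958.

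At the finest step the 33 proximal bins were taken singly. Of these, 21 had more contacts than expected with the proximal zones of the other carriers, and 24 had more than expected with those of the other autosomes. The values ran from 0.571 to 1.59 toward carriers, with a median of 1.10, and from 0.889 to 1.52 toward the others, with a median of 1.08. All 7 bins of chromosome 12 exceeded 1 toward carriers, from 1.10 to 1.48, but only 2 of the 7 bins of chromosome 15 did. No proximal bin had an interval that left 1 out toward carriers, while 4 did toward the other autosomes. The median expected number was 16 contacts per bin toward carriers and 56.2 toward the others, so the depth toward carriers was the lower.

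Contact at like positions was then followed along the chromosomes in 5 Mb steps. Within 5 Mb of the low-coordinate end the carriers made 16 contacts from 8 bins, 1.12 times the expected number (0.638 to 1.81). There the other autosomes were at 1.31 (1.16 to 1.48), and carriers with other autosomes at 1.42. From 5 to 10 Mb the carriers had 1.10 and the others 1.08. Across the 10 steps from 10 to 60 Mb, where both bins are inner on all but the shortest chromosome, the carriers ran from 0.847 to 1.14. None of the 12 steps differed between groups, with 0.461 the lowest adjusted p in the exact binomial test. In the step nearest the arrays the carriers' interval is too wide to tell their value from that of the other autosomes.

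**Figure D3:**
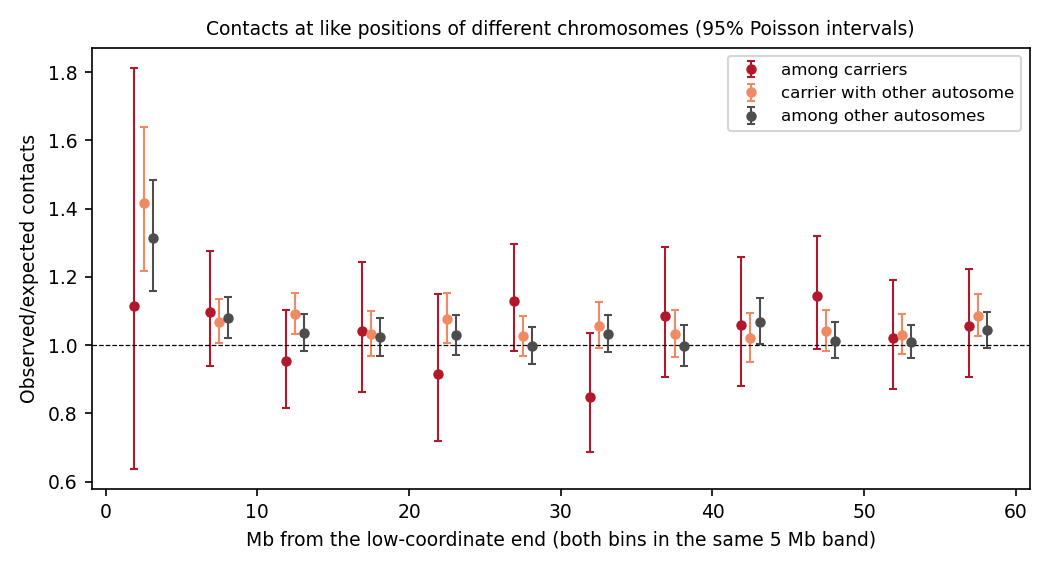
Observed over expected contacts (y axis) of bins in the same 5 Mb step from the low-coordinate end (x axis, Mb) on different chromosomes, among carriers, between a carrier and another autosome, and among other autosomes, with 95% exact Poisson intervals. Nearest the end the carriers stand at 1.12 with an interval of 0.638 to 1.81, and the other autosomes at 1.31.

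Contact of the proximal zones was also followed in successive 5 Mb steps from the high-coordinate end. Among carriers it lay on both sides of 1, from 0.929 to 1.12. The other autosomes stayed below 1 in every step, from 0.914 to 0.988. They showed no steady dip toward the end, at 0.944 nearest it and 0.942 from 45 to 50 Mb. In some steps the groups were close, at 0.929 on carriers and 0.932 on the others from 10 to 15 Mb. The carriers' intervals were wide, and nearest the end theirs (0.92 to 1.13) held the others' value of 0.944. The carriers' distal zones showed 0.964 to 1.04 along the same steps, while those of the other autosomes went from 1.10 nearest the end to as low as 0.997. Neither series was tested step by step.

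**Figure D4:**
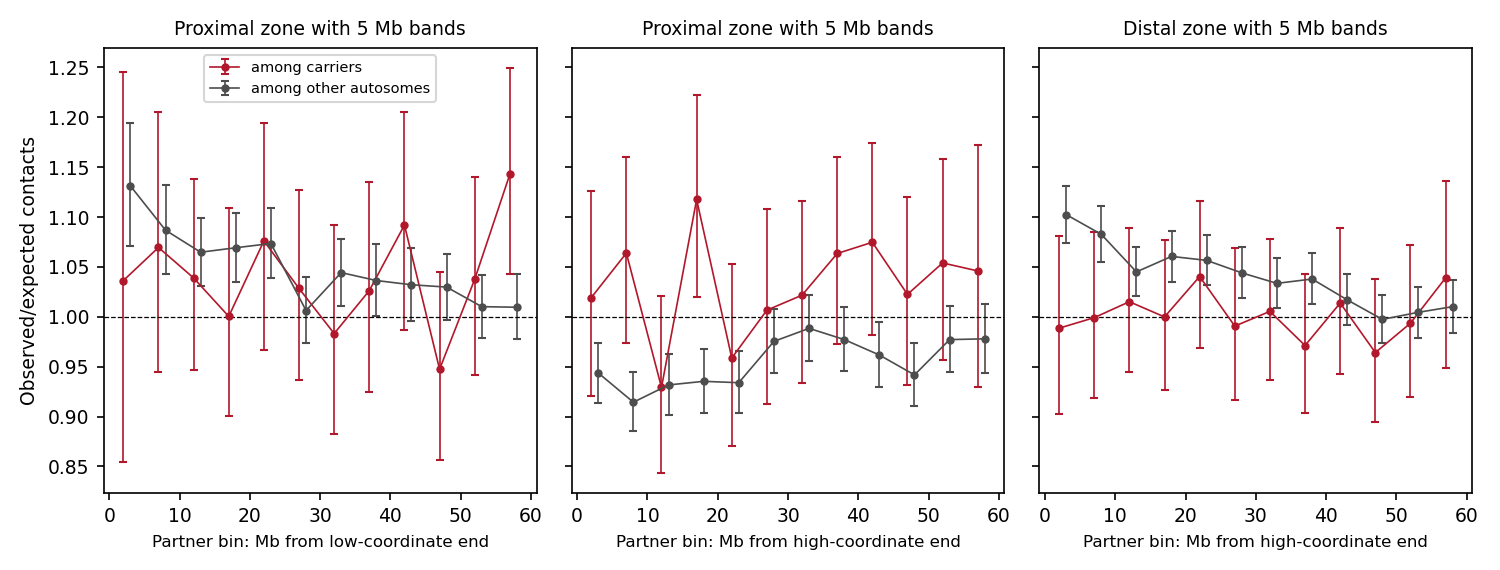
Observed over expected contacts (y axis) of a proximal or distal zone with successive 5 Mb steps of partner chromosomes (x axis, Mb from the end named), among carriers and among other autosomes, with 95% exact Poisson intervals. In the middle panel the other autosomes run from 0.914 to 0.988, and the carriers from 0.929 to 1.12.

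A score that splits bins by their pattern of contacts with other chromosomes, the leading component of the map, was read for the same zones. Its sign has no meaning of its own and was set so that the carriers' proximal mean is positive. The carriers' proximal bins averaged 0.181 ± 1.14 (SD, n = 33 bins), with 18 positive, and those of the other autosomes -0.309 ± 0.734 (SD, n = 87 bins), with 22 positive. On chromosomes 10, 11, 13, 14 and 17 they averaged -0.000375 ± 0.899 (SD, n = 28 bins), with 13 positive. The differences between these means are smaller than the spread between bins. Chromosome 19 was highest at 1.53 and chromosome 16 lowest at -0.438, and without chromosome 19 the carriers' mean was -0.119 ± 0.804 (SD, n = 27 bins). With the expected number scaled to each pairing of score quintiles, the excess of proximal with distal contact was 1.12 (adjusted p = 0.00705) and the distal ratio 0.901 (adjusted p = 0.0249), both by the exact binomial test. Without this scaling they were 1.12 and 0.899. The score comes from the same contacts, so its part in either difference was not tested.

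Whole carriers met each other about as often as coverage predicts. The 10 pairs had a mean of 1.01 ± 0.0189 (SD, n = 10 pairs), from 0.979 for chromosomes 16 and 18 to 1.04 for 16 and 19, which made 3875 contacts (1.01 to 1.07). None passed an exact Poisson test adjusted over all 190 pairs of chromosomes, in which 0% were called. At an unadjusted p under 0.05 there were 2 of the 10 carrier pairs, 12 with 18 and 16 with 19, and 14 of all pairs. The lowest adjusted p among carriers, for 16 with 19, was 0.291 in the exact Poisson test.

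In windows of 10 Mb no pair of carrier windows was called, out of 908, by the two-sided exact Poisson test at an adjusted p under 0.05. Over the whole map 0% of 33045 window pairs were called. At an unadjusted p under 0.05 there were 58 carrier pairs, or 6.39%, and 5.53% of all pairs. The highest value was 1.64, between chromosome 12 from 20 to 30 Mb and chromosome 18 from 0 to 10 Mb, with 19 contacts. Next came 1.53 between chromosome 12 from 60 to 70 Mb and chromosome 15 from 80 to 90 Mb, with 80 contacts. Of the 3 highest and 3 lowest carrier windows, all had chromosome 12 at one end, and 1 included a proximal zone. Those with chromosome 12 from 20 to 30 Mb had only 11.6 to 17.5 expected contacts. Several bins of that window were left out for low coverage. The other named pairs had chromosome 12 from 30 to 40, 40 to 50 or 60 to 70 Mb. They had 42.0, 21.0 and 52.4 expected contacts. None of the named pairs was called, and why chromosome 12 recurs among them was not tested.

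Bins were also ranked by their contact with the carriers' proximal zones as a whole. No bin of 2341 was called (0%), and 116 had an unadjusted p under 0.05 in the exact Poisson test. These included 18 of the 427 carrier bins, a share near that over all bins. None of the 33 carrier proximal bins was among them, where that share would give few. The highest bin was on chromosome 4 from 155000001 to 156000000, in that chromosome's distal zone, with 24 contacts against 10.5 expected (adjusted p = 0.670, exact Poisson test). The highest on a carrier was on chromosome 16 from 56000001 to 57000000, an inner bin, at 1.80. By zone the median was 1.10 in the carriers' own proximal bins and 1.08 in those of the other autosomes. It was 1.05 in the carriers' distal bins and 0.932 in those of the other autosomes. Medians of proximal bins were thus alike in both groups, and the distal medians lay on opposite sides of 1.

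At single pairs of 1 Mb bins the map was too sparse to single out carriers. None of the 72206 carrier pairs was called by the one-sided exact Poisson test, where 2 of all 2594953 pairs (7.71e-05%) were. At an unadjusted p under 0.05 there were 2070 carrier pairs, 2.87%, beside 2.76% of all pairs. The strongest carrier pair joined chr12:38000001-39000000 and chr16:74000001-75000000 by 8 contacts where 0.771 were expected (adjusted p = 0.407, exact Poisson test). Next was chr15:79000001-80000000 with chr18:32000001-33000000, with 8 contacts where 0.781 were expected. Both join inner bins, far from the arrays. One of the called pairs had a carrier at one end, chr1:115000001-116000000 with chr18:86000001-87000000, with 10 contacts against 0.751 expected (adjusted p = 0.0104, exact Poisson test).

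Within a chromosome the carriers were like the other autosomes. Bins 1 Mb apart on a carrier made 466 contacts, 1.5 times the number expected between chromosomes (1.37 to 1.64), and 1.46 on the others. The ratio of these was 1.02 (0.924 to 1.14, adjusted p = 0.744, exact binomial test). By carrier the value was 1.72 on chromosome 16, 1.67 on 12, 1.46 on 15, 1.36 on 18 and 1.16 on 19. Chromosome 19 alone had an interval that held 1 (0.856 to 1.53). None of the 7 distance classes differed between carriers and the others, with 0.603 the lowest adjusted p in the exact binomial test.

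**Figure D5:**
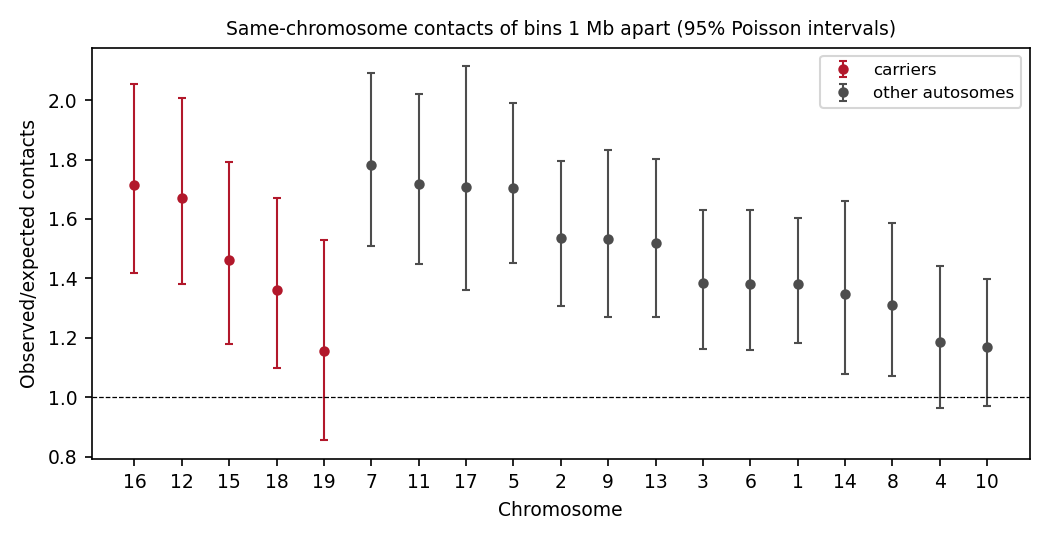
Observed over expected same-chromosome contacts of bins 1 Mb apart (y axis) for each carrier and each other autosome (x axis), with 95% exact Poisson intervals. The carriers run from 1.16 on chromosome 19 to 1.72 on chromosome 16 and the other autosomes from 1.17 to 1.78.

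Within the proximal zones, same-chromosome contacts of bins 1 to 3 Mb apart stood at 1.70 on carriers (1.33 to 2.13, 73 contacts) and 1.34 on the others (1.14 to 1.57). By carrier they were 2.38 on chromosome 18, 2.21 on 19, 2.20 on 16, 1.38 on 12 and 1.06 on 15. The ratio between groups was 1.26 (0.943 to 1.68), which did not pass (adjusted p = 0.279, exact binomial test). Chromosome 15, with the lowest contact to other carriers' proximal zones, was also lowest here, whereas chromosome 12, the highest there, was second lowest.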

How the data were processed

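Hi-C was done with HindIII on 6 libraries. The authors deposited 1 pooled map, with a balanced signal for each pair of bins of 1 Mb. HiC-Pro 2.7.8, bedtools and mm9 are named, without roles, per the submitters' processing notes. The sources used here do not give the libraries pooled or the read filters. Each value divided by its bins' balancing factors gave a whole number of contacts within 0.01 for all 1365118 listed pairs. Bins with under 50% of the median number of partners were left out, which kept 2341. Expected numbers came from bin factors fitted to contacts between chromosomes, of which 1776055 were used. Intervals are exact Poisson, and ratios were tested by a two-sided exact binomial test with Benjamini-Hochberg adjustment over 6 pairings (Python 3.11.15, SciPy 1.17.1). The scripts were tested on simulated data. Unlisted pairs of kept bins counted as 0. Windows were tested, and single bins named, only at 10 or more expected contacts. With 1 map, p-values measure counting error and no spread between embryos. The members, zones and comparisons were chosen with earlier results of these data known. Named bins and windows were the highest or lowest by ratio, and named bin pairs those of lowest p. Alternatives were the bin filter, the balanced signal, zone and window size, the comparison chromosomes, and each chromosome left out in turn. No sequence is printed because no mm9 sequence was used here.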

Additional observations from a re-analysis of the deposited data

Results flagged for a closer look

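Contacts with both ends in 1 bin lie outside the comparisons above and exceeded the level between chromosomes. The carriers had 489 of them, 3.01 times the expected number (2.75 to 3.28), and the 33 kept proximal bins of the carriers had 37, or 3.43 times. The other autosomes gave 3.32 (3.18 to 3.46). The difference between groups was not tested.

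The 36 carrier bins left out for low coverage made 163 contacts with the carriers' proximal zones on other chromosomes, 1.23 times the expected number (1.05 to 1.44). Of these bins, 13 lie on chromosome 12, 11 on 15, 7 on 16 and 5 on 19. The bins had a median of 385 contacts each.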

How the results depend on the processing

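The excess of proximal with distal contact was not a planned result. It stayed above 1 in 28 alternatives, all added after the data were seen, from 1.07 to 1.17. It missed the threshold in 3, without chromosome 18 (1.12) or 19 (1.10) and with a 5 Mb zone (1.17). The distal ratio stayed below 1 in 28 alternatives, from 0.812 to 0.968, and missed the threshold in 7: without chromosome 15 (0.895), 16 (0.939), 18 (0.886) or 19 (0.902), with a 5 Mb zone (0.812), against chromosomes 10, 11, 13, 14 and 17 (0.955), and with 9, which is shorter, in place of 10 (0.968). The proximal ratio crossed 1 without chromosome 15 (1.09) and against those sets (1.03 and 1.06). Proximal contact among carriers was 0.960 without chromosome 12 and 1.21 without 15. The latter had an unadjusted p of 0.0215 in the exact Poisson test. Its ratio to inner contact was 0.956 without chromosome 12 and 1.20 without 15, the latter with an unadjusted p of 0.0209 in the exact binomial test. The inner ratio was 0.997 with a 15 Mb zone and 0.998 with expected numbers scaled to chromosome pairs. The same-chromosome ratio at 1 Mb was 0.992 without chromosome 12 and 0.984 without 16. The cause of these changes was not tested. Leaving out a chromosome or narrowing the zone also lowers the counts. Calls of bins, windows and bin pairs among carriers stayed at 0 in every alternative run. No paired analysis was possible because the deposited map pools the samples of 1 group. Depth limits the step nearest the arrays, with 16 contacts among carriers.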
